A study of Homo sapiens with 12 samples.

Results

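Long noncoding RNA genes recognised by their symbols were followed in U937 cells treated with an antibody against LILRB3. A gene was taken when its symbol began with LINC and a digit (long intergenic noncoding RNAs), began with SNHG and a digit (small nucleolar RNA host genes), or ended in -AS or -IT and a digit (antisense and intronic transcripts), and when its counts summed to at least 60 over the 6 libraries of the antagonist experiment. The rule took 479 of the 27825 named genes of that table: 149 LINC genes, 18 SNHG genes, 303 antisense genes and 9 intronic transcripts. The summed counts therefore chose the members. Of 2497 symbols with such names, 1038 were at 0 in all 6 libraries. Just inside the limit, LINC00853 and LINC00866 had 60 summed counts each, and just outside it LINC02809 and NPPA-AS1 had 59. Because the sum spans both groups, 28 members had fewer than 30 counts in the IgG libraries together and 8 had fewer than 30 in the antagonist libraries, so counts of calls among the lowest members describe the rule as well as the cells.

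U937 is a human pro-monocytic leukemia line, and LILRB3 a receptor with inhibitory motifs on myeloid cells. Per the labels, all 4 groups were pretreated with interferon gamma at 50 ng/mL. One group then received a LILRB3 antagonist antibody and another a LILRB3 agonist antibody, each for 72 hours and each beside a nonspecific IgG group of its own, with 3 libraries per group and 12 in all. The antibody dose reads 5 mg/ml in the labels, a unit left here as written. The labels do not tie the libraries of a group to separate cultures, and p-values then cover the spread between these libraries alone, which may be technical. Both controls carry the interferon pretreatment, and no group without it was analysed here. All cells are of 1 line.

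Total counts lay between 17053190 and 18833088 in the 6 libraries of the antagonist experiment. The 9 myeloid markers summed to between 42953 and 44613 counts per library, led by ITGB2 and ELANE, whereas MPO had between 2 and 17. Markers of T cells (0 to 8 counts), erythroid cells (0 to 3), epithelium (5 to 18) and fibroblasts (9 to 38) were near 0, and the B cell marker MS4A1 was at 0. The antibody's target LILRB3 had 5 counts in the IgG libraries and 10 in the antagonist libraries in all. In the first IgG library ribosomal protein genes took 7.63% of counts, against 6.75% and 6.46% in the other IgG libraries and 5.29% to 5.55% in the antagonist libraries. Log2 fold changes of members called lower are therefore given with and without that library. Those of ribosomal protein genes and other reference genes are given with all libraries only.

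SNHG genes carry small nucleolar RNAs (snoRNAs) in their introns. The snoRNAs guide chemical modification of ribosomal RNA, while the spliced host RNA is in many cases noncoding and is degraded by nonsense-mediated decay when ribosomes engage it. Many host genes, like the genes of ribosomal proteins, start transcription at a cytosine followed by a run of pyrimidines, the terminal oligopyrimidine or TOP start. Antisense genes lie on the strand opposite to a protein-coding gene and often begin at its promoter. LINC genes stand apart from coding genes, and intronic transcripts lie inside the intron of a host gene.

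The annotated starts of SNHG genes that changed are shown for comparison with the TOP start of ribosomal protein genes. SNHG6, which was also lower, was not among the 16 SNHG genes with a start window and is not shown. Each line gives 30 bases of the RefSeq assembly GRCh38.p14, 10 before the annotated start and 20 from it on, written 5′ to 3′ on the gene's strand. Capitals mark a run of at least 5 pyrimidines that opens with C within 5 bases of the annotated start. The first group below was lower with the antagonist: SNHG5 (chr6:85678714-85678743, minus strand), SNHG29 (chr17:16438977-16439006, plus), SNHG8 (chr4:118278752-118278781, plus) and SNHG32 (chr6:31834906-31834935, plus). The second group was higher: SNHG12 (chr1:28581854-28581883, minus), SNHG17 (chr20:38435309-38435338, minus) and SNHG3 (chr1:28505933-28505962, plus).
SNHG5: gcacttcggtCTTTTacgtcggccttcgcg
SNHG29: ccttttgtgaggattgggatattccgactc
SNHG8: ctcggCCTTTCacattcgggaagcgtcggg
SNHG32: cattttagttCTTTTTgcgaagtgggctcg
SNHG12: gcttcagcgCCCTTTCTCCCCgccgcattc
SNHG17: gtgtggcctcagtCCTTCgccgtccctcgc
SNHG3: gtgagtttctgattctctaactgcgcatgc

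Such a run, searched on the gene's own strand, was present in 9 of the 16 SNHG genes of the RefSeq start table (56.2%), in 54 of 67 ribosomal protein genes (80.6%) and in 25.2% of all 27305 genes with a start window of the same length. LINC genes (28.6% of 91) and antisense genes (42 of 224, 18.8%) lay near the share of all genes. Among SNHG genes the run did not separate directions: 3 of the 4 lower genes shown and 2 of the 3 higher genes had it. The longest run of those printed, in SNHG12, belongs to a gene that rose. These are matches of letters around an annotated start, and start sites in use were not measured.

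With the antagonist, the abundant SNHG genes SNHG5, SNHG29, SNHG6, SNHG8 and SNHG32 were lower, SNHG12, SNHG17 and SNHG3 were higher, and 10 others did not pass the test. Across all 13778 genes tested, the quasi-likelihood test of edgeR (Benjamini-Hochberg adjusted p under 0.05) called 15.6% higher and 20.5% lower (36.1% in either direction). The SNHG class, with 3 higher and 5 lower of 18, thus lay near the background in both directions. Without the second IgG library, and again without the first antagonist library, 3 SNHG genes were lower. Its median log2 fold change was -0.001, beside -0.01 for all genes, and without the first IgG library it was 0.13.

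SNHG5, which hosts SNORD50B, is known for a spliced RNA with a TOP start. It had CPM (TMM-scaled counts relative to library size) of 463, 381 and 352 in the IgG libraries and 280, 291 and 278 in the antagonist libraries. Every antagonist library lay below every IgG library, and the first IgG library was the highest. The log2 fold change was -0.50 ± 0.09 (SE, adjusted p = 0.0013), and -0.35 without that library.

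SNHG29, the host of SNORD49A, SNORD49B and SNORD65, was the SNHG gene with the most counts. Its CPM was 1073, 916 and 923 with IgG and 727, 772 and 740 with the antagonist, again with no overlap. The log2 fold change was -0.38 ± 0.07 (adjusted p = 0.00146), and -0.28 without the first IgG library. Part of its exons is shared with other genes, chiefly LRRC75A.

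SNHG6, the host of SNORD87, had CPM of 202, 168 and 154 with IgG and 133, 145 and 138 with the antagonist. The groups did not overlap (log2 fold change -0.34 ± 0.09, adjusted p = 0.0106), and without the first IgG library the log2 fold change was -0.19. The call was lost without the first antagonist library (adjusted p = 0.0618) and with length and GC trends taken out (adjusted p = 0.0865). SNHG32, the host of SNORD48 and SNORD52, had CPM of 131, 123 and 110 against 102, 97.2 and 104, a log2 fold change of -0.27 ± 0.07 (adjusted p = 0.0105), and of -0.18 without the first IgG library. That call was lost with library totals in place of TMM (adjusted p = 0.0684) and without the second IgG library (adjusted p = 0.0607).

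SNHG8, the host of SNORA24, gave the least secure fall. Its CPM was 90.1, 79.8 and 65.5 with IgG and 62.5, 63.8 and 65.3 with the antagonist, so that the lowest IgG library and the highest antagonist library almost met. The log2 fold change of -0.30 ± 0.10 (adjusted p = 0.0299) shrank to -0.16 without the first IgG library (adjusted p = 0.0871). The call was lost in 7 of 11 alternatives. SNHG5 and SNHG29 passed in all 11.

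SNHG12, a host of SNORA44, SNORA61 and SNORD99, moved the other way. It had CPM of 21.8, 21.0 and 17.7 with IgG and 28.5, 29.5 and 24.7 with the antagonist, with every antagonist library above every IgG library. Its log2 fold change was 0.45 ± 0.10 (adjusted p = 0.00456). SNHG3, the host of SNORA73A and SNORA73B next to RCC1, had CPM of 73.9, 71.0 and 65.4 against 83.9, 88.7 and 82.8, a log2 fold change of 0.28 ± 0.07 (adjusted p = 0.00574). SNHG12 and SNHG3 passed in all 11 alternatives.

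SNHG17, a host of SNORA71A, SNORA71B, SNORA71C and SNORA71D, had CPM of 20.3, 18.8 and 19.4 with IgG and 23.6, 21.4 and 27.2 with the antagonist. The groups did not overlap, and the third antagonist library was the highest. The log2 fold change was 0.30 ± 0.10 (adjusted p = 0.0302). The call was lost in 4 of 11 alternatives, among them that without the third antagonist library, where the log2 fold change was 0.20.

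**Figure D1:**
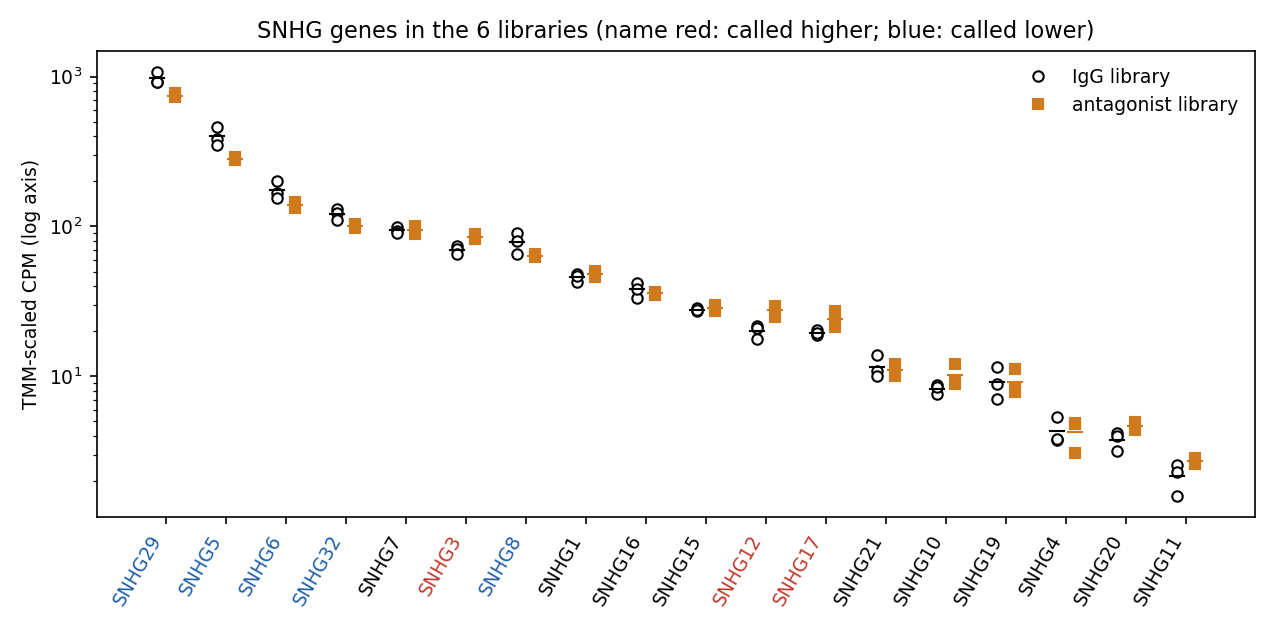
TMM-scaled CPM (vertical log axis) of the 18 SNHG genes in the 3 IgG libraries (open circles) and 3 antagonist libraries (filled squares), ordered by mean CPM, with a short line at each group mean. The squares lie below the circles for the 5 genes named in blue, SNHG29 and SNHG5 at the left among them, and above them for SNHG3, SNHG12 and SNHG17, named in red.

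The 10 SNHG genes that did not pass had log2 fold changes between -0.09 (SNHG16) and 0.32 (SNHG11). SNHG1, which hosts 7 resident snoRNAs in the annotation used here, had CPM of 47.9, 42.8 and 46.6 with IgG and 48.7, 50.6 and 46.2 with the antagonist, and the groups overlapped. SNHG7 had CPM of 99.3, 93.8 and 91.0 against 101, 88.9 and 95.9, with a log2 fold change of 0.01 ± 0.07, and SNHG15 had 28.4, 27.1 and 27.8 against 29.1, 27.3 and 29.7. SNHG10, SNHG11 and SNHG20 had antagonist values above all IgG values without passing (log2 fold changes 0.30 ± 0.14, 0.32 ± 0.22 and 0.30 ± 0.17). SNHG4, SNHG16, SNHG19 and SNHG21 overlapped between groups, with log2 fold changes of -0.02, -0.09, -0.01 and -0.08.

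Among the 8 SNHG genes that passed, those that fell had the higher level per length. The 5 lower genes were the 5 with the highest CPM per kilobase of median transcript length: SNHG29 at 1096, SNHG5 at 507, SNHG6 at 280, SNHG8 at 151 and SNHG32 at 149. The next levels were 64.5 for SNHG7 and 63.0 for SNHG1, neither of which passed, and the 3 higher genes stood at 35.3 (SNHG3), 26.5 (SNHG17) and 21.9 (SNHG12). The median transcript of the lower genes was between 470 and 784 bases long and that of the higher genes between 822 and 2201. Among genes that did not pass this order was looser: SNHG19, the shortest at 342 bases, SNHG21 at 674 and SNHG4 at 679 had log2 fold changes near 0 and levels between 6.30 and 26.7 CPM per kilobase. Removal of length and GC trends left 3 lower and 2 higher.

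**Figure D2:**
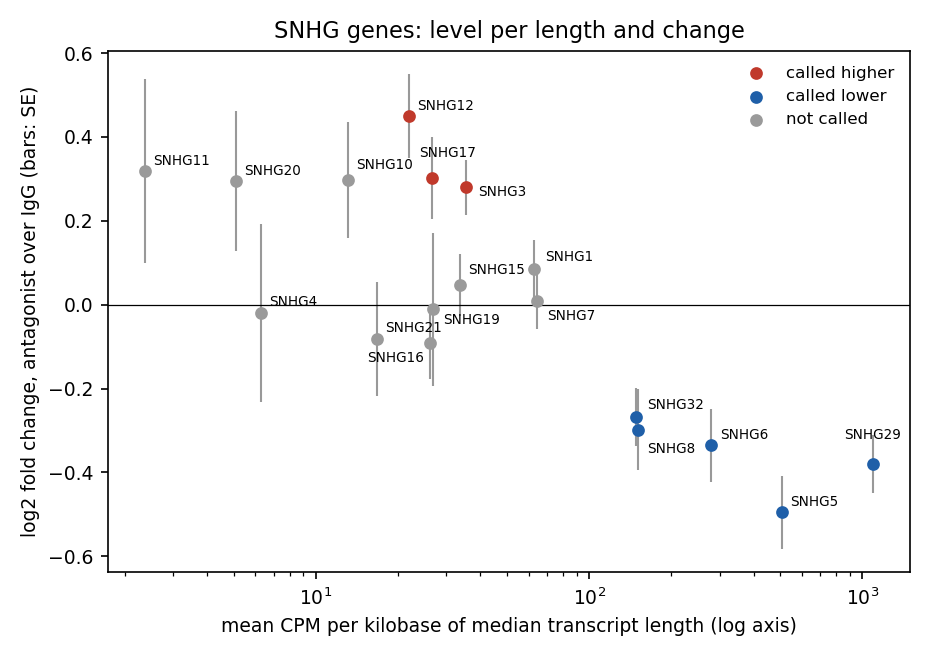
Log2 fold change of each SNHG gene with the antagonist (vertical axis, bars are 1 SE) against mean CPM per kilobase of median transcript length (horizontal log axis). The 5 genes called lower (blue) are the 5 rightmost, from SNHG32 at 149 to SNHG29 at 1096 CPM per kilobase, and the 3 called higher (red) lie between 21.9 and 35.3.

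Ribosomal protein genes gave a narrower picture than their SNHG counterparts. Of 82 tested, 74 passed as lower and 0 as higher in edgeR's test, with 0 higher also at an unadjusted p under 0.05 and by DESeq2. Their log2 fold changes had a median of -0.44 and quartiles of -0.50 and -0.40. Of the 18 SNHG genes, SNHG5 (-0.50) lay between those quartiles, SNHG29 (-0.38), SNHG6, SNHG8 and SNHG32 fell by less, and the 3 higher genes lay above the highest ribosomal protein value, 0.16. Among the ribosomal protein genes that passed, the largest falls were those of RPS10 (-0.79 ± 0.29, with 5.21 CPM in the first IgG library beside 2.55 and 2.57 in the others), RPL7 (-0.61 ± 0.16), RPL39 (-0.59 ± 0.10) and RPL35 (-0.58 ± 0.09). The median of the SNHG genes, centred on the IgG mean, was 0.13, -0.05 and -0.12 in the IgG libraries and -0.01, -0.04 and 0.08 in the antagonist libraries on the log2 scale with a pseudocount of 0.5 CPM. That of the ribosomal protein genes was 0.14, -0.06 and -0.09 with IgG and -0.49, -0.39 and -0.44 with the antagonist. The first IgG library was thus the highest for both groups, and only the ribosomal protein medians separated the treatments. Summed over the class, SNHG genes took 0.231%, 0.196% and 0.186% of counts with IgG and 0.174%, 0.182% and 0.175% with the antagonist, sums dominated by SNHG29 and SNHG5.

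Other snoRNA hosts and the proteins that bind snoRNAs were followed as reference. Of 26 tested hosts without an SNHG name, 3 were higher and 15 lower (median log2 fold change -0.18). The 15 include EPB41L4A-AS1, itself an antisense member, and NOP56, which is also counted below as a snoRNP core protein. HSPA8, a constitutive heat shock cognate chaperone, was lower (-0.53 ± 0.06, adjusted p = 0.000194), as were ZFAS1, a noncoding host with a TOP start (-0.49 ± 0.14, adjusted p = 0.0299), and RACK1, a protein of the small ribosomal subunit (-0.38 ± 0.06, adjusted p = 0.00048). ZFAS1 had CPM of 255.1, 180.6 and 177.7 with IgG and 141.5, 157.8 and 137.7 with the antagonist, so the first IgG library stood apart. PRRC2A was higher (0.39 ± 0.07, adjusted p = 0.00144). Of the 8 snoRNP core proteins, 6 were lower and 0 higher by edgeR (0 at an unadjusted p under 0.05 and 0 by DESeq2), with a median of -0.35. They included FBL, the methyltransferase of box C/D particles (-0.43 ± 0.05), and NOP10, NHP2 and GAR1 of the box H/ACA particles (-0.41 ± 0.08, -0.40 ± 0.07 and -0.36 ± 0.10).

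Genes of RNA decay had calls in both directions, as did all genes tested (15.6% higher, 20.5% lower). Among 21 factors of nonsense-mediated decay, 7 were higher, with SMG5 (0.52 ± 0.05), DHX34 (0.54 ± 0.08) and the kinase SMG1 (0.41 ± 0.06), and 6 were lower, with the exon junction protein MAGOH (-0.40 ± 0.08). Of 22 nuclear exosome genes, 2 were higher and 7 lower (9.09% and 31.8%). RBM7, an exosome adaptor, was lower at -0.53, as was the core subunit EXOSC4 at -0.48, while ZFC3H1 (0.43) and TENT4A (0.42) were higher.

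Most small RNAs inside SNHG genes were counted too thinly for a test. GENCODE v29 places 42 snoRNAs and small Cajal body RNAs inside the 18 hosts, of which 35 had a row, 5 were at 0 in all libraries and 8 were tested. The 3 that passed were all higher, beside 15.6% of all genes called higher, and their hosts were the 3 SNHG genes that rose. SNORA73A of SNHG3 had 59, 42 and 48 counts with IgG and 77, 87 and 78 with the antagonist, a log2 fold change of 0.65 ± 0.17 (adjusted p = 0.011). SNORA61 of SNHG12 had 55, 40 and 33 against 82, 63 and 65 (0.66 ± 0.21, adjusted p = 0.0247). In both, no antagonist library overlapped an IgG library. SNORA71C of SNHG17 had 17, 5 and 9 against 16, 22 and 33, with overlap (1.14 ± 0.41, adjusted p = 0.0463). SNORA71C has close copies in the SNORA71 family, so its count is uncertain. Other residents of these hosts did not pass or were below the filter. SNORA44 of SNHG12 did not pass (0.24 ± 0.44, adjusted p = 0.6955). Counts summed with IgG and with the antagonist were 28 and 39 for SNORD99 of SNHG12, and 4 and 1 for SNORA73B of SNHG3. For SNORA71A, SNORA71B and SNORA71D of SNHG17 they were 23 and 21, 26 and 30, and 11 and 12.

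Among hosts that fell, 1 resident could be tested. SNORD87 of SNHG6 had 27, 9 and 16 counts with IgG and 11, 18 and 19 with the antagonist (log2 fold change -0.16 ± 0.38, adjusted p = 0.768). SNORD49A of SNHG29 was below the filter on low counts, with 9, 3 and 5 against 14, 10 and 17. Reads of an unspliced host also cover its snoRNAs, so these counts do not separate mature snoRNA from host RNA.

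LINC and antisense genes rose far more often than they fell. Of 148 LINC genes tested, 34 were higher and 1 lower (median log2 fold change 0.31). Of 300 antisense genes, 62 were higher and 4 lower, with a median of 0.25, and of 9 intronic transcripts 3 were higher and 0 lower, with a median of 0.38. For intronic transcripts the count of 0 lower in edgeR was also 0 at an unadjusted p under 0.05 and 0 by DESeq2. Set beside the 15.6% of all genes called higher and 20.5% called lower, 23.0% of LINC genes and 20.7% of antisense genes were higher, and 0.676% and 1.33% were lower. The median member had 281 summed counts and the median gene tested 2620. Genes with few counts were less often called lower, and shares beside genes with as many counts follow below. The 4 members that did not pass the filter on low counts were LINC02591, DHDDS-AS1, PRKAR1B-AS1 and THBS4-AS1.

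The 3 antagonist libraries lay close together. LINC genes together took 0.253%, 0.248% and 0.246% of counts with IgG and 0.309%, 0.310% and 0.306% with the antagonist. These LINC sums lean on LINC00926, with 115265 summed counts beside a class median of 281. Antisense genes took 0.156%, 0.155% and 0.153% against 0.195%, 0.196% and 0.196%. Neither class overlapped between groups, and the first IgG library, which stood apart for ribosomal protein and SNHG genes, was within 0.01 percentage points of the other IgG libraries here. Without it 33 LINC, 66 antisense and 5 intronic genes were higher, and 2 LINC and 1 antisense gene were lower. Without the first antagonist library 23 LINC, 36 antisense and 1 intronic gene were higher and 1 antisense gene was lower, and calls over all genes fell from 4978 to 3143 as well. Without the second IgG library 2 antisense genes were lower.

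**Figure D3:**
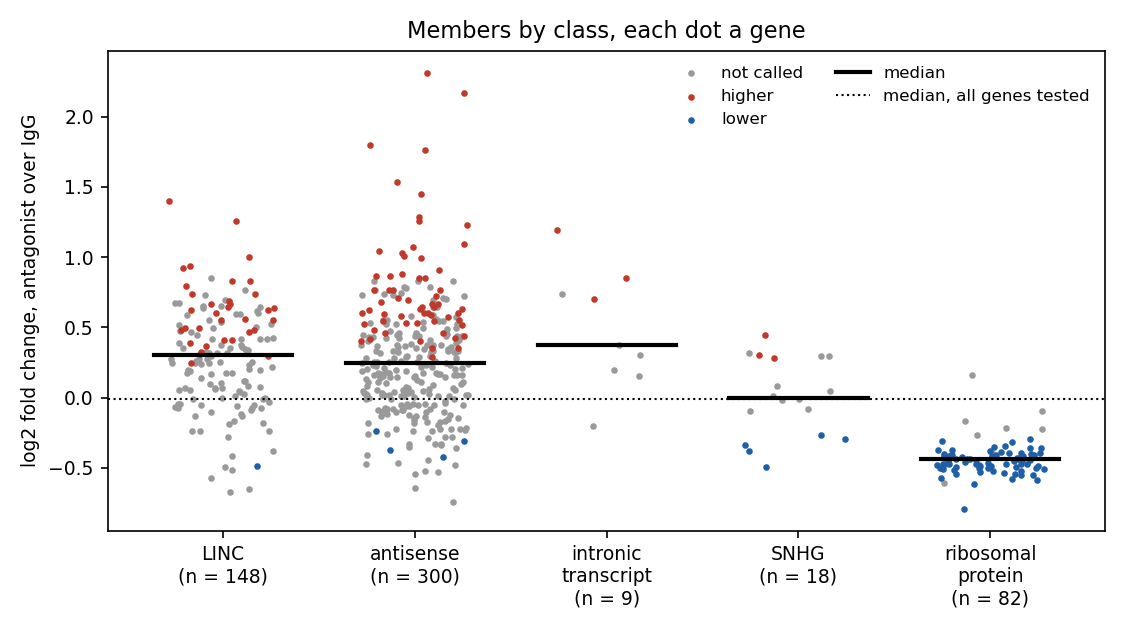
Log2 fold change with the antagonist (vertical axis) of each tested LINC, antisense, intronic and SNHG gene, and of the ribosomal protein genes; red and blue mark genes called higher and lower, the thick line is the class median and the dotted line the median of all genes tested. LINC and antisense medians (0.31 and 0.25) lie above the dotted line, the SNHG median on it and the ribosomal protein median at -0.44.

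How far the members stood from other genes depended on how many counts they had. From 60 to below 300 summed counts, 9.05% of the LINC, antisense and intronic members were called higher, beside 7.80% of all genes with as many counts, and the medians were 0.26 and 0.21. Lower calls were 0 of 243 members, beside 1.62% of all genes. Here the members lay near the background. From 300 to below 1200 counts, 31.5% were higher beside 15.8% of all genes, with medians of 0.30 and 0.06. In that range 0.671% of the members were lower beside 6.77% of all genes. At 1200 counts or more, 46.2% of 65 members were higher beside 17.5% of 9091 genes, and 4 members were lower beside 2632 of the genes, with medians of 0.29 and -0.06. The 12 SNHG genes at that level held 3 higher and 5 lower.

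**Figure D4:**
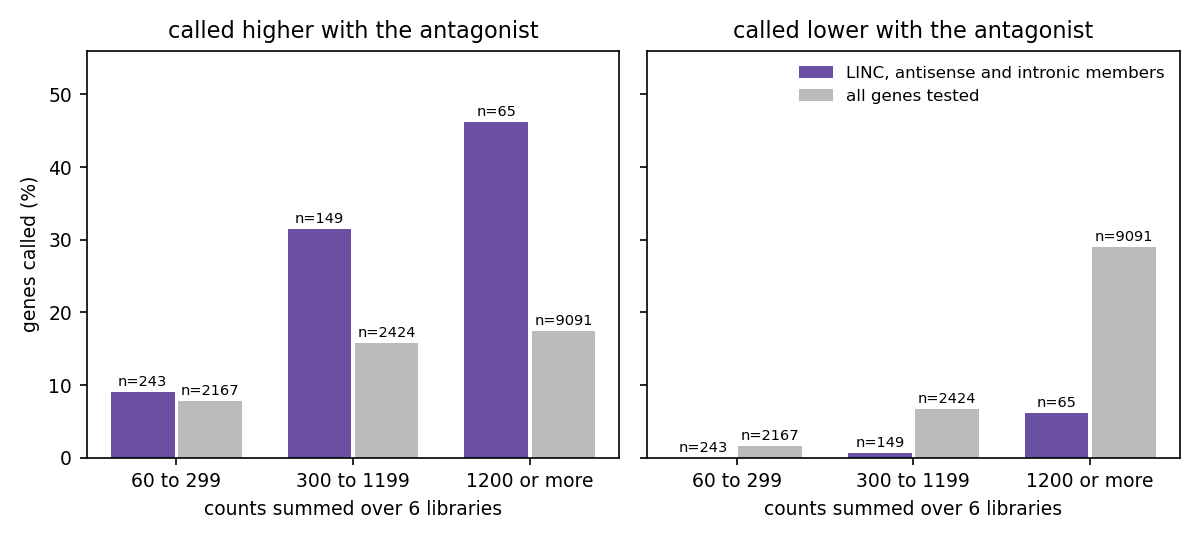
Share of genes called higher (left) and lower (right) with the antagonist, in percent, for LINC, antisense and intronic members (purple) and for all genes tested (grey), by counts summed over the 6 libraries. The bars for higher calls are near each other below 300 counts (9.05% and 7.80%) and far apart at 1200 or more (46.2% and 17.5%).

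LINC00926 (chr15:57300365-57307769, plus strand, GRCh38) was the member with the most counts. It had CPM of 932.5, 977 and 1007 with IgG and 1212, 1196 and 1212 with the antagonist, with no overlap. Its log2 fold change was 0.31 ± 0.06 (adjusted p = 0.00127). LINC02470 (chr12:9936579-9943495, minus strand) had CPM of 217, 186 and 189 against 259, 282 and 246 (0.41 ± 0.08, adjusted p = 0.00148). Neither shares an exon base with another gene in GENCODE v29.

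LINC02067 (chr3:161426427-161448242, plus strand) was the only LINC gene called lower. Its CPM was 573, 483 and 464 with IgG and 342, 377 and 366 with the antagonist, with every antagonist library below every IgG library. The log2 fold change was -0.49 ± 0.08 (adjusted p = 0.000805), within the quartiles of the ribosomal protein genes. It passed in all alternatives, with -0.36 without the first IgG library. Of its exon bases, 119 (4.18%) lie opposite to RPL23AP42, a pseudogene copy of a ribosomal protein gene. What part of its counts came from reads of that sequence was not tested.

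LINC01000 gave the largest rise among LINC genes with many counts. Its CPM was 81.9, 105 and 112 with IgG and 185, 166 and 181 with the antagonist. All antagonist libraries were above all IgG libraries, and the log2 fold change was 0.83 ± 0.10 (adjusted p = 0.000373). Its symbol had no match in GENCODE v29, so its overlap with other genes is not given.

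The largest rise of the LINC genes with at least 1 CPM was that of LINC00526, which had CPM of 2.10, 1.19 and 1.77 with IgG and 3.88, 4.68 and 4.84 with the antagonist (log2 fold change 1.40 ± 0.22, adjusted p = 0.000706). Of its exon bases, 41.2% lie in LINC00667, on the opposite strand, which was also higher (0.33 ± 0.08, adjusted p = 0.00574). LINC01023 had CPM of 0.591, 1.48 and 1.22 against 2.51, 2.09 and 3.19 (1.26 ± 0.31). Neither gene had overlapping groups.

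Further rises were LINC00999 (1.00 ± 0.15), LINC01311 (0.93 ± 0.24), LINC01144 (0.92 ± 0.24), LINC00342 (0.83 ± 0.15) and LINC00265 (0.79 ± 0.11). LINC00342 shares 46.7% of its 31-base windows with AC092683.1, and LINC00265 shares 25.5% with the pseudogene GTF2IP13, so reads of those copies could have been counted in either place. The calls for LINC01311 and LINC01144 were lost without the first antagonist library (adjusted p = 0.0585 and 0.0575). The other 23 LINC genes called higher, LINC00115 apart, had log2 fold changes of 0.25 to 0.74.

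Antisense genes with many counts did not move as 1 group. SLC9A3-AS1 had CPM of 63.6, 82.5 and 85.3 with IgG and 114, 105 and 118 with the antagonist (log2 fold change 0.55 ± 0.10, adjusted p = 0.00181). GABPB1-AS1 had 78.5, 84.4 and 76.6 against 102, 102 and 102 (0.35 ± 0.06, adjusted p = 0.000979). OIP5-AS1, a cytoplasmic noncoding RNA also known as cyrano, had 71.3, 61.6 and 62.0 against 65.8, 65.6 and 65.9, with overlap and a log2 fold change of 0.02 ± 0.07. FGD5-AS1 had 77.6, 73.6 and 73.6 against 69.0, 70.6 and 71.9, without overlap and without passing (-0.09 ± 0.06, adjusted p = 0.261).

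MEIS1-AS2 lies opposite to MEIS1, a homeobox gene of hematopoietic progenitors and leukemia. It had CPM of 5.86, 7.11 and 7.16 with IgG and 13.6, 12.7 and 13.7 with the antagonist. The groups were far apart, with a log2 fold change of 0.99 ± 0.12 (adjusted p = 0.000204). MEIS1 itself did not pass (0.16 ± 0.06, adjusted p = 0.064), although 42.7% of the exon bases of MEIS1-AS2 lie within MEIS1 exons.

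RASSF1-AS1 had CPM of 21.8, 34.5 and 37.7 with IgG and 60.5, 49.5 and 66.2 with the antagonist (0.91 ± 0.22, adjusted p = 0.0197). Its exons lie to 83.4% within RASSF1, a gene for a Ras-association protein of the Hippo pathway, which was higher as well (0.48 ± 0.06). The call for RASSF1-AS1 was lost with no filter on low counts (adjusted p = 0.0747).

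Of the smaller antisense genes, LMF1-AS1 had CPM of 0.430, 0.474 and 0.550 with IgG and 1.60, 1.82 and 1.54 with the antagonist (1.76 ± 0.30, adjusted p = 0.0011), while LMF1 did not pass (0.15 ± 0.09). LMF1-AS1, too, had fewer than 30 counts in the IgG libraries together. CELF2-AS1 (1.45 ± 0.40) also rose beside a sense gene that did not pass. DLG5-AS1 (1.26 ± 0.28), MZF1-AS1 (1.09 ± 0.26) and NAV2-AS6 (1.03 ± 0.31) rose beside sense genes that rose as well, DLG5 by 0.73, MZF1 by 0.47 and NAV2 by 0.58 on the log2 scale. LCMT1-AS2 (1.23 ± 0.31) rose while LCMT1, a methyltransferase of protein phosphatase 2A, was lower (-0.40 ± 0.08). The calls for CELF2-AS1 and NAV2-AS6 were lost without the first and without the third antagonist library, and adjusted p over these lay between 0.0538 and 0.103.

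The 4 antisense genes that fell did so by little. EPB41L4A-AS1, a host of a snoRNA with exons partly within EPB41L4A, had CPM of 51.3, 46.9 and 43.4 with IgG and 37.96, 38.1 and 38.5 with the antagonist (-0.31 ± 0.07, adjusted p = 0.00727), and it passed in all alternatives, with -0.215 without the first IgG library. SATB1-AS1 had 16.0, 12.6 and 12.5 against 10.2, 10.1 and 10.5 (-0.42 ± 0.12), TRAM2-AS1 had 12.9, 11.3 and 10.9 against 7.88, 10.2 and 9.14 (-0.37 ± 0.13), and MRPL20-AS1 had 30.2, 30.9 and 28.6 against 25.8, 25.9 and 24.6 (-0.23 ± 0.08). None of the 4 overlapped between groups. The calls for SATB1-AS1, TRAM2-AS1 and MRPL20-AS1 were lost in 4, 7 and 6 of 11 alternatives, each of them with library totals in place of TMM and without the first IgG library, where their log2 fold changes were -0.26, -0.27 and -0.20.

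Genes outside the rule for named genes, picked after their values were seen, include 2 from the HOXA cluster. HOXA-AS2 rose from a mean of 0.519 to 1.28 CPM (1.29 ± 0.34, adjusted p = 0.0113) and HOXA-AS3 from 0.516 to 1.08 CPM (1.04 ± 0.37, adjusted p = 0.041). Both had fewer than 30 counts in the IgG libraries together, and so reached the limit of 60 summed counts through the group in which they were high. Of the 62 antisense genes called higher, 14 rose more than 2-fold and 7 had a mean under 1 CPM. The 14 include HOXA-AS2, HOXA-AS3 and LMF1-AS1, each with fewer than 30 counts in the IgG libraries together, and these are not the only such cases. PRRT3-AS1 (2.31), RPS6KA2-AS1 (2.17) and RTCA-AS1 (1.80) rose most, with only 94, 75 and 61 counts summed over both groups. Most of those counts came from the antagonist libraries, so these 3 also reached the limit through the group in which they were high. The share of all genes that rose as far was not computed, so the 14 describe the rule as well as the cells. Called or not, 90 of the 300 antisense genes tested had antagonist libraries all above the IgG libraries, beside 21.9% of all genes tested.

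For 281 pairs of an antisense and a sense gene both were tested, and the antisense median was 0.25 beside 0.05 for the sense genes. Of all 281 sense genes, 69 were higher and 49 lower. Of the 58 antisense genes in pairs that were higher, the sense gene was higher in 23, lower in 9 and did not pass in 26. Spearman's rho across these 281 pairs was 0.13, given as a description, since pairs share libraries and many share exon sequence. It was 0.17 in the 198 pairs that share exon bases, 0.07 in the 79 that share none, and -0.03 in the 99 whose starts lie within 1000 bases of each other on opposite strands.

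**Figure D5:**
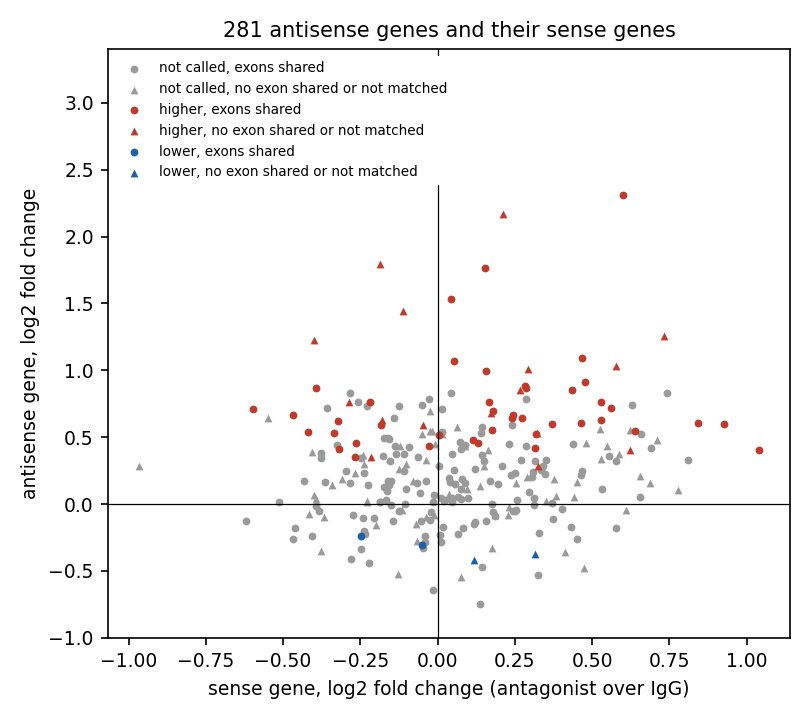
Log2 fold change with the antagonist of 281 antisense genes (vertical axis) against that of their sense genes (horizontal axis); circles share exon bases with the sense gene, triangles do not or were not matched, and red and blue mark antisense genes called higher and lower. Red points spread over both sides of the vertical line: of 58 antisense genes called higher, 23 have a sense gene called higher and 9 one called lower, beside 69 and 49 of all 281 sense genes.

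GABPB1 shows how members at 1 locus can part. GABPB1, a subunit of the GA-binding transcription factor, was lower (-0.27 ± 0.09, adjusted p = 0.0427), whereas GABPB1-AS1, which starts 449 bases away on the opposite strand, was higher. The intronic transcript GABPB1-IT1 of the same gene did not pass (0.20 ± 0.10, adjusted p = 0.139), with CPM of 23.1, 21.3 and 19.1 against 21.7, 26.4 and 24.9. TRAM2-AS1 and TRAM2 parted in the opposite sense, the antisense gene lower and TRAM2 higher (0.32 ± 0.06).

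Whether the deposited counts separate strands is not given in the sources used here, and without strand the reads of a gene and of its antisense partner cannot be told apart. Of the 62 antisense genes called higher, 50 share exon bases with another gene, as do 236 of the 299 antisense members matched to GENCODE v29. Of the members that share none, 18 of 85 LINC and 12 of 61 antisense genes were higher, and 0 LINC and 2 antisense genes were lower, to be read beside the 15.6% of all genes that were higher and 20.5% that were lower. For these LINC genes, 1 was lower at an unadjusted p under 0.05 in edgeR and 0 by DESeq2. In that subset, chosen after the data were seen, the medians were 0.26 for LINC and 0.29 for antisense genes.

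The 3 intronic transcripts that rose had host genes that moved in both directions. ANP32A-IT1 had CPM of 4.30, 5.04 and 4.46 with IgG and 9.76, 9.53 and 12.3 with the antagonist. No library overlapped, and the log2 fold change was 1.20 ± 0.15 (adjusted p = 0.00022). Its host ANP32A, an acidic nuclear phosphoprotein, was lower (-0.38 ± 0.07, adjusted p = 0.00142).

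ERI3-IT1 had CPM of 1.40, 2.19 and 1.35 against 2.80, 3.69 and 2.42 (0.85 ± 0.26, adjusted p = 0.0205), and its host ERI3 was lower (-0.21 ± 0.06). AGPAT4-IT1 had 3.28, 6.87 and 4.59 against 7.65, 7.60 and 8.59 (0.70 ± 0.21, adjusted p = 0.0215), and its host AGPAT4 was higher (0.38 ± 0.07). The call for ERI3-IT1 was lost without the first or the second antagonist library, and that for AGPAT4-IT1 without the first or the third. Of the 6 intronic transcripts that did not pass, ASAP1-IT2 had a negative log2 fold change (-0.20 ± 0.45), beside a host, ASAP1, that was higher (0.54 ± 0.06). NPTN-IT1 (0.38 ± 0.19), N4BP2L2-IT2 (0.30 ± 0.19), HS1BP3-IT1 (0.74 ± 0.38) and BIN3-IT1 (0.16 ± 0.47) did not pass, nor did their hosts. GABPB1-IT1 and N4BP2L2-IT2 passed without the first IgG library (adjusted p = 0.021 and 0.0199). Without strand or splicing, reads of unspliced host RNA cannot be told apart from those of an intronic transcript.

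Of 15 tested long noncoding RNA genes with names outside the rule, 4 were higher and 1 lower (26.7% and 6.67%). Of all genes tested, 15.6% were higher and 20.5% lower. The median of the 15 was 0.05, beside -0.01 for all genes. KCNQ1OT1 (0.54), TUG1 (0.32) and NEAT1 (0.31), the scaffold of paraspeckles, were higher, and MALAT1, an abundant RNA of nuclear speckles, was lower (-0.45).

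The table deposited for the agonist lists 904 genes, and how they were chosen is not given in the sources used here. Of the listed genes 55.6% were called higher and 44.2% lower, so they look selected for change on the same libraries. Their calls are therefore read as a description, and the zero point of the fold changes is uncertain. Among the listed genes were 7 of the 479 members. SNHG29 was lower with the agonist (-0.32 ± 0.06) as with the antagonist (-0.38 ± 0.07), with counts of 8348, 6992 and 8040 in IgG libraries and 7689, 5958 and 6558 in agonist libraries. LINC00115 was higher with both, by 0.73 ± 0.17 with the agonist and 0.74 ± 0.15 with the antagonist. SLC9A3-AS1 was also higher with both (0.32 ± 0.09 and 0.55 ± 0.10). For SLC9A3-AS1 the difference between the antibodies did not pass (-0.23 ± 0.14, adjusted p = 0.175), but it did with library totals (-0.33, adjusted p = 0.0408) and with DESeq2 size factors (-0.34, adjusted p = 0.0376), alternatives added after seeing the data.

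The other 4 listed members did not pass with the antagonist. ST20-AS1 had a log2 fold change of 0.69 ± 0.22 with the agonist and 0.17 ± 0.12 with the antagonist, and the difference did not pass (0.52 ± 0.26, adjusted p = 0.0899). ITGB2-AS1, opposite to the integrin gene ITGB2, had 0.36 ± 0.13 with the agonist, a call lost in 3 alternatives, among them that without the first IgG library of its set (0.22). PSMD6-AS2 was lower with the agonist (-0.94 ± 0.18), with counts of 146, 107 and 133 against 69, 80 and 66, and LINC00471 was higher (2.03 ± 0.59), with counts of 4, 5 and 3 against 13, 12 and 29. For these last 2 genes the difference between the antibodies passed, as it did for 56.5% of the 902 genes shared by the tables.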

How the data were processed

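RNA of 12 U937 libraries was sequenced; the authors deposited whole-number read counts per gene in 1 unnormalized table per antibody. HISAT2, Cufflinks and hg38 are named per the submitters' processing notes, without versions. The program that counted, its annotation and its strand setting were not given in the sources used here. Columns carry a group name and no replicate number, so libraries are numbered by column order, which pairs nothing. The 570 rows without a symbol held 0.0678% to 0.105% of counts and stayed out of all fits.

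Counts were tested across the whole table with edgeR 4.0.16 in R 4.3.3 (filterByExpr at default settings, TMM, robust quasi-likelihood test, Benjamini-Hochberg adjustment at 0.05), tested on simulated data first. SE came from the fold change and the F statistic. The difference between antibodies was an interaction over shared genes, each set scaled on its own. Alternatives were library totals, DESeq2 1.42.0 size factors and its Wald test, no low-count filter, each library left out, higher count limits, and removal of length and GC trends, with 96.9% of members covered. Exon overlap, snoRNAs and strands came from GENCODE v29 (464 members matched), and start windows from RefSeq GRCh38.p14 (334 members). TMM assumes that most genes are unchanged.

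Members, reference lists and tests were chosen with earlier results of these data known. Named were every SNHG and intronic member; of LINC and of antisense genes the 8 largest rises and 4 largest falls among called genes with separate groups and at least 1 CPM on average, and the 4 with the highest CPM; sense partners; members in the agonist table; and up to 4 passing genes per reference list with the largest change.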

Additional observations from a re-analysis of the deposited data

Results flagged for a closer look

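The effect of the agonist on LINC00471 differed from that of the antagonist by 2.01 ± 0.60 on the log2 scale (SE, edgeR interaction test, adjusted p = 0.00851): the log2 fold change was 2.03 with the agonist and 0.05 with the antagonist. The agonist value rests on 4, 5 and 3 counts in IgG libraries and 13, 12 and 29 in agonist libraries, of which the third is the highest. PSMD6-AS2 differed by -1.30 ± 0.26 (adjusted p = 0.000553), with -0.94 for the agonist and 0.36 for the antagonist, and its agonist groups did not overlap. The difference was tested over genes of which 56.5% passed, in a table of genes that look selected on these libraries.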

How the results depend on the processing

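Without single libraries, 3143 to 5075 genes were called in all (4978 with all libraries), fewest without antagonist library 1 (3143) and antagonist library 3 (3190). Called higher were 23 to 35 LINC, 36 to 66 antisense, 1 to 5 intronic and 2 to 3 SNHG genes, and called lower 1 to 2 LINC, 1 to 5 antisense and 3 to 5 SNHG genes. Library totals in place of TMM left 3 SNHG and 1 antisense gene lower. They moved the median of all genes from -0.01 to 0.07, and the share of higher calls from 43.1% to 65.4%. DESeq2's Wald test left 2 antisense genes lower, and removal of length and GC trends 3 SNHG genes. Among members sharing no exon base with another gene, an alternative added after seeing the data, 18 of 85 LINC, 1 of 7 SNHG and 12 of 61 antisense genes were higher, and 0 LINC, 2 SNHG and 2 antisense genes lower (15.6% and 20.5% of all genes). For the 0 LINC genes (edgeR), 1 was lower at an unadjusted p under 0.05 and 0 by DESeq2. Of 37 named members called with the antagonist, 23 passed in all alternatives and 14 were lost in at least 1; no call changed direction. No paired analysis was possible because the columns carry no replicate number.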

Other observations

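ITGB2-AS1 was counted at very different levels in the 2 tables. It had 70 counts over the 6 libraries of the antagonist experiment, where ITGB2 had a mean of 998.5 CPM with IgG, and 295, 359 and 376 counts in IgG libraries and 525, 436 and 468 in agonist libraries of the agonist experiment. Both controls received interferon gamma and IgG per the labels, although the column names of the antagonist table name interferon and those of the agonist table do not. The tables were deposited separately, and a difference in counting between them was not tested.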
